A study of Oryctolagus cuniculus with 14 samples.

Results

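A rule on group medians chose 130 rabbit genes as highest in corneas that showed no clinical impairment after sulfur mustard. They stood above both naive and clinically impaired corneas. They were taken from 23669 gene IDs, of which 13971 had a count in any library, and genes with a smaller excess were left out. The 130 genes were chosen by their measured levels, as medians over the libraries of a group in CPM (a gene's count scaled to a common library total of 1000000). A gene was taken when its non-impaired median was at least 3 CPM and at least 1.5 times both other medians. Its naive median also had to be at least 0.5 CPM, and its impaired median to lie above 0.6 and below 2 times the naive median. Every difference between the groups in these genes was therefore used to choose them and is given as a description. RNA-seq libraries of whole corneas came from New Zealand White rabbits. In 5 corneas (impaired) and 5 others (non-impaired) the eye had been exposed to sulfur mustard vapor 4 weeks earlier and was scored clinically impaired or clinically non-impaired. The 4 naive corneas came from naive eyes, labelled with the same 4 weeks. Dose, age, the signs behind the clinical score and the number of rabbits behind each group were not given in the sources read.

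Sulfur mustard is an alkylating agent that damages DNA and blisters epithelia. The cornea is a clear, avascular tissue made of a layered epithelium renewed from stem cells at its rim, a collagen stroma kept by keratocytes, and an inner endothelium that pumps out water. Exposed eyes of rabbits and people can heal and later become cloudy, vascularised and depleted of epithelial stem cells, while other exposed eyes stay clear. The files give genes by Ensembl ID with no name, and 0 of the 23669 IDs were found in a RefSeq table of 38822 rabbit genes. What the 130 genes encode, the cell types they mark and whether the libraries hold the markers of cornea were therefore not analysed here. A whole cornea holds many cell types, so more cells of a type and more RNA per cell cannot be told apart. The genes are numbered here from gene 1, with the highest non-impaired median, to gene 130, with the lowest, and IDs are given for 4 of them.

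The libraries held 12002876 to 17488019 counts, of which 39464 to 114803 belonged to the 130 genes, and no pair of libraries was nearly identical (lowest chi-square per degree of freedom 14.9). A single library decided some of what follows. Impaired 1 was the highest of the 5 impaired libraries in 41.9% of the 8137 tested genes with a non-impaired median of at least 3 CPM, where no other impaired library exceeded 16.01%. Naive 4 was the lowest of the 4 naive libraries in 40.3% of those genes and the highest in 29.6%.

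The 130 genes had non-impaired medians from 3.08 to 566 CPM, with a median of 14.5 CPM. In 13 of them the non-impaired median was at least 100 CPM, in 69 it lay between 10 and 100 CPM and in 48 below 10 CPM. The 13 abundant genes made up 56.3% of the summed non-impaired medians. The ratio of the non-impaired to the naive median ran from 1.5003 to 6.46, with a median of 1.99, and was at least 2 in 63 genes and at least 3 in 12. Against impaired corneas the ratio ran from 1.5012 to 4.54, with a median of 1.83, and was at least 2 in 40 genes and at least 3 in 7. Most of the set thus stood less than 2 times above impaired corneas. Low genes had a median ratio to naive of 2.15, genes of 10 to 100 CPM 1.96 and abundant genes 1.77. As these ratios chose the genes, their order by abundance describes the set and was not tested. The impaired median was above the naive median in 81 genes and below it in 49.

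The set ends where the thresholds lie, with no break in the values. A further 265 genes met every condition except the 1.5-fold excess over naive, and 213 every condition except that over impaired. The gene nearest inside the first threshold had a ratio of 1.5003 and the nearest outside 1.4985. At the floor of 3 CPM the nearest values were 3.08 inside and 2.91 outside, and 49 genes missed the set by that floor alone. For the impaired to naive ratio, the nearest values were 0.601 and 0.556 at the lower bound and 1.99 and 2.01 at the upper bound. The most abundant gene of the series, which held a median of 7.04% of counts in non-impaired corneas, 5.81% in impaired ones and 5.002% in naive ones, was outside, with ratios of 1.41 and 1.21.

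**Figure D1:**
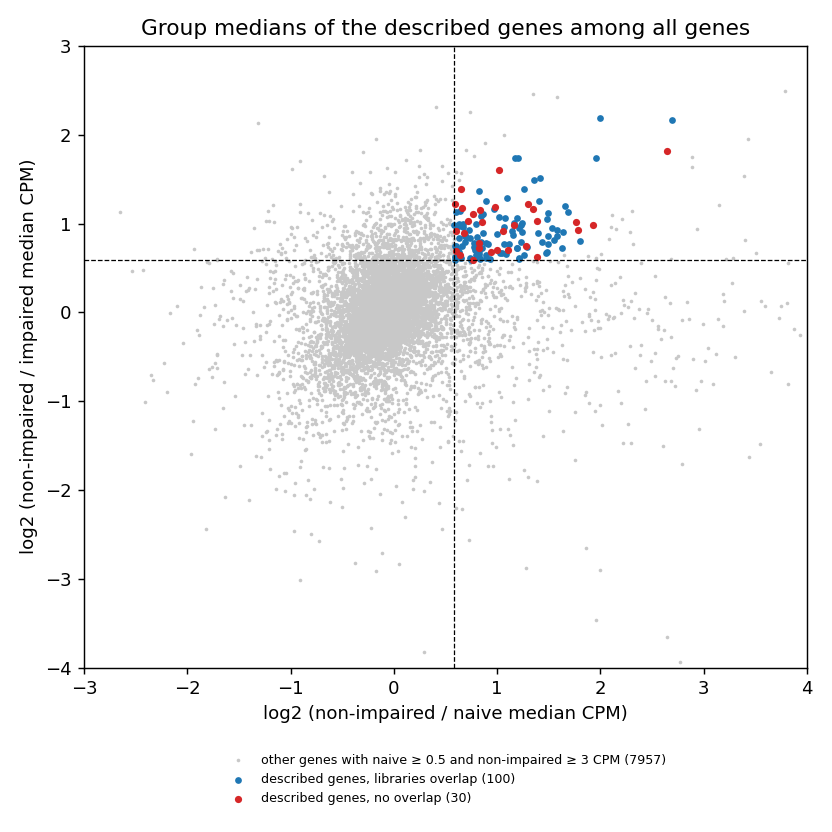
Log2 ratios of group medians, non-impaired to naive on the x axis and non-impaired to impaired on the y axis, for 8087 genes with at least 0.5 CPM in naive and 3 CPM in non-impaired corneas (39 lie outside the axes). Dashed lines mark the 1.5-fold thresholds; the 130 genes sit in the upper right corner next to a continuous cloud, and the 30 whose libraries do not overlap (red) lie among the other 100 (blue).

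Summed over the 130 genes, naive corneas 1 to 4 held 0.344%, 0.369%, 0.279% and 0.248% of their counts. Non-impaired corneas 1 to 5 held 0.682%, 0.586%, 0.594%, 0.547% and 0.537%, and impaired corneas 1 to 5 held 0.516%, 0.297%, 0.440%, 0.342% and 0.304%. All 5 non-impaired libraries were above every other library, with impaired 1 nearest to them. The mean (± SD) was 0.589% ± 0.058 over 5 non-impaired, 0.380% ± 0.095 over 5 impaired and 0.310% ± 0.056 over 4 naive libraries. Gene 1 alone gave 23.6% of the sum in non-impaired 1, 23.1% in impaired 3 and 19.4% in impaired 1, and 5.66% to 12.3% in the other libraries. Without gene 1 the non-impaired corneas drew together at 0.521% ± 0.012, against 0.325% ± 0.058 over impaired and 0.279% ± 0.052 over naive libraries.

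Within each library, the median over the 130 genes of log2 CPM relative to the naive median was 0.86 to 0.99 in the 5 non-impaired libraries. It was 0.56 in impaired 1 and -0.01 to 0.21 in impaired 2 to 5. Among naive libraries it ranged from -0.29 in naive 4 to 0.22 in naive 2, which thus lay above impaired 2 to 5. Impaired 1 was the highest impaired library in 66 of the 130 genes, 50.8%, and naive 2 the highest naive library in 73, 56.2%, where it was highest in 30.2% of the 8137 genes. Naive 4 was the lowest naive library in 72 genes, 55.4%.

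**Figure D2:**
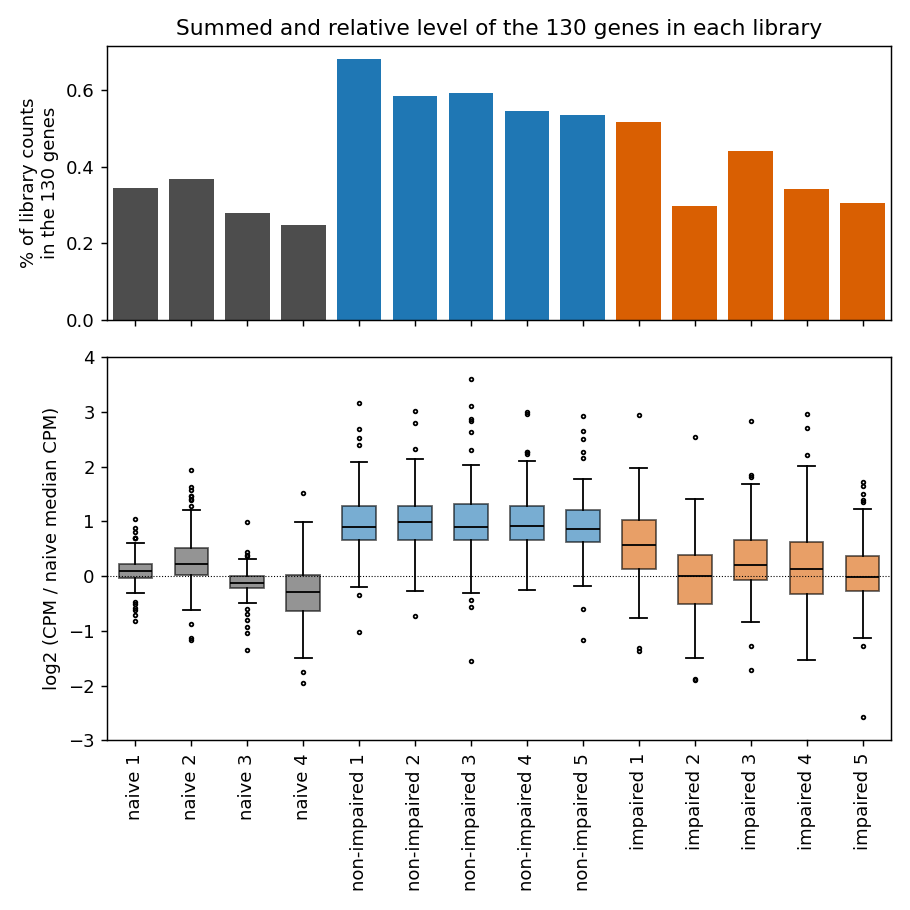
Upper panel: percent of each library's counts that fell on the 130 genes. Lower panel: log2 of CPM over the naive median for the 130 genes (box: quartiles; line: median; whiskers: 1.5 times the box height; 5 of 1820 values lie outside the axis); the non-impaired libraries (blue) lie near 0.9, impaired 1 at 0.56 and the other impaired libraries (orange) near the naive ones (grey).

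Complete separation of the libraries was the exception. In 30 of the 130 genes, 23.1%, the lowest non-impaired library lay above every naive and every impaired library, a pattern found in 1.32% of the 10048 genes tested. Against naive corneas alone, 75 of the 130 genes did not overlap, 57.7%, where 11.6% of all tested genes had every non-impaired library above every naive one. Against impaired corneas alone, 36 did not overlap, 27.7%, where the share over all tested genes was 7.16%. Since medians chose the genes, these shares describe the set and support nothing about it. Impaired 1 set the overlap more than any other library: it reached the non-impaired range in 68 genes and exceeded the non-impaired median in 27. Without impaired 1, 50 genes did not overlap (2.32% of all tested genes), and without both impaired 1 and naive 4, also 50 (2.40%). Impaired 3 and impaired 4 each reached the range in 39 genes, naive 2 in 41, and the other naive and impaired libraries in 15 to 23. Without both impaired 1 and naive 2, 58 genes did not overlap (3.67% of all tested genes).

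**Figure D3:**
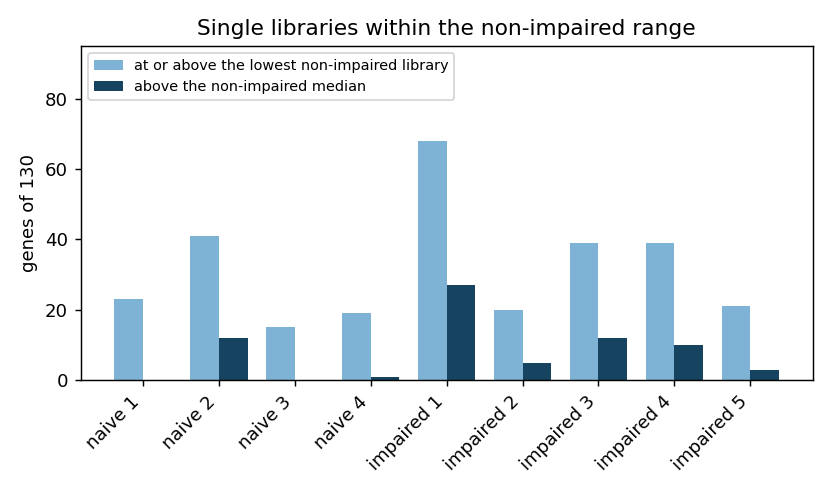
For each naive and impaired library, the number of the 130 genes at or above the lowest non-impaired library (light bars) and above the non-impaired median (dark bars). Impaired 1 reached the range in 68 genes and the median in 27; naive 2 followed with 41 and 12, and naive 1 and naive 3 exceeded the median in 0.

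All 130 genes passed the filter on low counts and entered a fit of all 14 libraries. In that fit 83 of the 130 genes were called higher in non-impaired corneas than in naive ones, 63.8%, where 12.8% of all tested genes were so called (quasi-likelihood test of edgeR, p adjusted after Benjamini-Hochberg over 10048 genes, threshold 0.05). Against impaired corneas 69 were called higher, 53.1%, where the share over all genes was 14.4%. Both calls were made in 58 of the 130 genes, 44.6%, where 2.52% of all genes had both. These 58 were 22.9% of the 253 genes with both calls, so the choice by fold and the choice by test overlapped in part. The remaining 72 genes met the fold on medians without passing both tests. Without both impaired 1 and naive 4, 72 of the 130 genes were called higher against naive corneas, where 12.2% of all tested genes were, and 84 against impaired corneas, where 17.8% were. The median log2 fold change of the 130 genes was 0.99 against naive and 0.69 against impaired corneas, and 0.00 in each over all tested genes. In 4 genes the fitted value against impaired corneas was below 0, down to -0.10, although the medians differed 1.5-fold or more. These tests set the difference between groups against the spread between samples. As no label ties the corneas to separate animals, that spread may not be one between animals and may be technical.

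Between impaired and naive corneas, 16 of the 130 genes were called higher in impaired corneas, 12.3%, where 19.8% of all tested genes were so called, and 2 were called lower, 1.54%, against 15.8% of all genes. The rule had bounded this difference too. Over the 16 genes the median ratio to naive was 1.61 for impaired and 2.85 for non-impaired corneas, which placed impaired corneas between the other groups. The rule put non-impaired above impaired medians and the call put impaired above naive corneas, so this order follows from the choice. A fit of only the impaired and naive libraries called 10 of the 130 genes, all higher in impaired corneas, where it called 28.1% of all genes it tested. Without both impaired 1 and naive 4, 13 were called higher and 7 lower, where 44.1% of all tested genes were called in either direction. The 2 genes called lower in impaired corneas in the fit of all libraries were gene 76 and gene 102. Gene 76 stood at 7.15, 12.5, 7.85 and 7.19 CPM in naive corneas 1 to 4 and 5.75, 4.36, 6.58, 5.85 and 5.86 CPM in impaired corneas 1 to 5. In non-impaired corneas 1 to 5 it stood at 12.2, 11.7, 10.3, 13.6 and 11.2 CPM, and naive 2 lay within that range. Gene 102 stood at 3.89, 4.70, 2.83 and 3.83 CPM in naive corneas 1 to 4, 6.36, 5.92, 6.07, 6.82 and 5.56 CPM in non-impaired corneas 1 to 5 and 1.4996, 1.39, 2.32, 3.03 and 2.58 CPM in impaired corneas 1 to 5. Its non-impaired libraries lay above all others, and naive 3 lay below impaired 4 in the 1 crossing between naive and impaired libraries.

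The 6 most abundant genes showed how differently the same medians could arise. Gene 1 stood at 425, 288, 246 and 273 CPM in naive corneas 1 to 4, 1609, 623, 566, 309 and 309 CPM in non-impaired corneas 1 to 5 and 1000.3, 211, 1016, 259 and 269 CPM in impaired corneas 1 to 5. It varied more within the exposed groups than between them: non-impaired 1, impaired 1 and impaired 3 were high, and non-impaired 4 and 5 lay within the naive range. Its ratios of medians, 2.02 to naive and 2.11 to impaired, rested on the middle library of each group. Without impaired 2, 4 or 5 the log2 ratio to impaired turned from 1.08 to -0.16, -0.16 and -0.15.

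Gene 2 stood at 389, 375, 316 and 234 CPM in naive corneas 1 to 4 and 421, 240.4, 299, 263 and 274 CPM in impaired corneas 1 to 5. In non-impaired corneas 2 to 5 it lay between 535 and 571 CPM, but non-impaired 1, at 385 CPM, lay among the naive libraries and below impaired 1. Gene 3 was the clearest of the abundant genes, at 177, 208, 142 and 115 CPM in naive corneas 1 to 4, 347, 319, 348, 286 and 332 CPM in non-impaired corneas 1 to 5 and 176, 159, 167, 191 and 201 CPM in impaired corneas 1 to 5. Its lowest non-impaired library was 1.38 times its highest other library, and its naive and impaired libraries overlapped.

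Gene 4 was nearly level in naive corneas, at 167, 174, 155 and 165 CPM, and stood at 294, 272, 235, 283 and 339 CPM in non-impaired corneas 1 to 5. In impaired corneas 1 to 5 it was 257, 157, 266, 159 and 169.8 CPM, with impaired 1 and 3 inside the non-impaired range and the other 3 at the naive level. Gene 5 stood at 147, 199.7, 136 and 175 CPM in naive corneas 1 to 4, 301, 248, 321, 147 and 271 CPM in non-impaired corneas 1 to 5 and 112, 312, 180.4, 188 and 160.2 CPM in impaired corneas 1 to 5. In gene 5 non-impaired 4 was low, and with it the non-impaired range took in 4 of the 5 impaired libraries, all but impaired 1, and 3 of the 4 naive ones, all but naive 3. Gene 6 stood at 164, 128, 125 and 49.6 CPM in naive corneas 1 to 4, with naive 4 lowest. It stood at 196, 283, 250.1, 267 and 211 CPM in non-impaired and 169, 58.95, 112, 110.1 and 64.9 CPM in impaired corneas 1 to 5, and the non-impaired libraries did not overlap the others.

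Among all 130 genes, the widest gaps between the lowest non-impaired library and the highest other library were found in genes 89, 88, 3 and 11. Gene 89 stood at 5.78, 4.77, 3.96 and 1.80 CPM in naive corneas 1 to 4, 8.26, 8.40, 9.64, 10.9 and 8.82 CPM in non-impaired corneas 1 to 5 and 5.50, 2.05, 3.89, 2.89 and 1.997 CPM in impaired corneas 1 to 5, and its gap was 1.43-fold. Gene 88 stood at 3.95, 4.44, 3.25 and 2.94 CPM in naive corneas 1 to 4, 12.6, 7.86, 9.14, 11.1 and 8.31 CPM in non-impaired corneas 1 to 5 and 5.58, 4.10, 2.01, 5.11 and 3.86 CPM in impaired corneas 1 to 5, and its gap was 1.41-fold. Even these gaps were smaller than 1.5-fold between the nearest libraries. Gene 11 was the tightest of the 4 in non-impaired corneas, at 136, 140.0, 157, 141 and 138 CPM in corneas 1 to 5. It stood at 92.01, 92.8, 73.1 and 59.8 CPM in naive and 93.4, 90.1, 93.3, 105 and 78.5 CPM in impaired corneas, and its ratio to the impaired median, 1.501, was the smallest in the set.

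The 4 genes given by ID were those with the most extreme ratios of medians among genes of at least 5 CPM in non-impaired corneas. ENSOCUG00000016548 (gene 108) had the largest ratio to naive, 6.25. It stood at 1.20, 2.29, 0.425 and 0.539 CPM in naive corneas 1 to 4, 7.84, 2.66, 4.32, 6.82 and 5.44 CPM in non-impaired corneas 1 to 5 and 1.9995, 1.98, 1.504, 0.875 and 1.55 CPM in impaired corneas 1 to 5. Every non-impaired library was above every other library, the nearest being non-impaired 2 and naive 2. Without naive 1 or naive 2 its log2 ratio to naive moved from 2.65 to 3.34. ENSOCUG00000000804 (gene 84) followed with 3.99 times the naive median and had the largest ratio to impaired, 4.54. Yet it stood at 3.09, 1.11, 1.77 and 7.01 CPM in naive and 9.68, 16.8, 0.831, 8.65 and 18.4 CPM in non-impaired corneas, and at 9.58, 0.661, 2.13, 0.875 and 6.25 CPM in impaired corneas. Non-impaired 3, with 10 counts, was below all naive libraries, and impaired 1 was above non-impaired 3 and 4. The log2 ratio of gene 84 to impaired moved from 2.18 to 1.21 without impaired 2 or impaired 4 and to 1.44 without impaired 3.

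The smallest ratios of impaired to non-impaired median among the remaining genes belonged to ENSOCUG00000015585 (gene 25) and ENSOCUG00000025701 (gene 68). Gene 25 stood at 24.6, 54.3, 20.02 and 6.59 CPM in naive corneas 1 to 4, 50.2, 82.8, 138, 35.3 and 50.01 CPM in non-impaired corneas 1 to 5 and 32.7, 15.002, 13.98, 41.8 and 14.4 CPM in impaired corneas 1 to 5, a ratio of non-impaired to impaired median of 3.35. Naive 2 exceeded 3 of the 5 non-impaired libraries in gene 25, and impaired 4 exceeded non-impaired 4. The log2 ratio of gene 25 to impaired moved from 1.74 to 1.07 without impaired 3 or impaired 5 and to 1.09 without impaired 2. Gene 68 stood at 7.55, 4.57, 8.28 and 2.58 CPM in naive corneas 1 to 4, 13.96, 8.34, 8.73, 29.4 and 18.9 CPM in non-impaired corneas 1 to 5 and 23.2, 3.77, 13.2, 0.740 and 4.19 CPM in impaired corneas 1 to 5, a ratio of 3.34. Impaired 1 exceeded 4 of the 5 non-impaired libraries in gene 68, impaired 3 exceeded 2 of them, and impaired 4 held 11 counts. The log2 ratio of gene 68 to impaired moved from 1.74 to 0.68 without impaired 2 or impaired 4 and to 0.72 without impaired 5. Among the 4 genes given by ID, large ratios thus came with wide spreads within groups in genes 25, 68 and 84, and with separated libraries in gene 108. The largest ratio to naive of all 130 genes, 6.46, belonged to gene 117, which lay below 5 CPM. Gene 117 stood at 0.457, 1.37, 0.849 and 0.419 CPM in naive corneas 1 to 4, 4.22, 0.544, 7.90, 5.24 and 2.92 CPM in non-impaired corneas 1 to 5 and 1.92, 0.595, 0.940, 2.42 and 0.515 CPM in impaired corneas 1 to 5. Non-impaired 2, with 9 counts of gene 117, lay among the naive libraries.

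**Figure D4:**
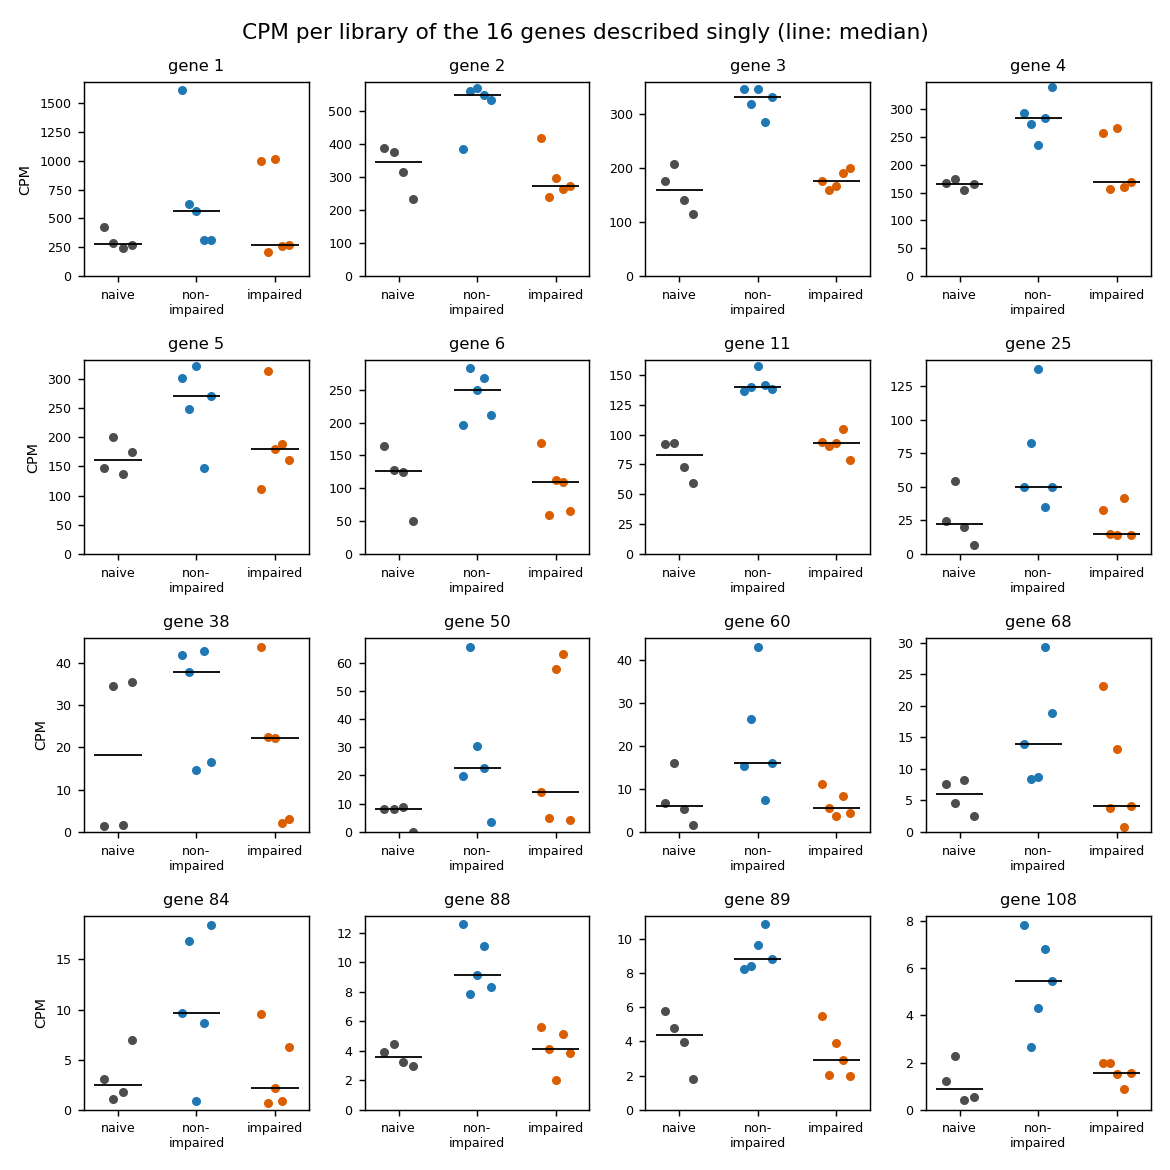
CPM of each library (points, in replicate order) and group median (lines) for 16 genes: the 6 most abundant, the 4 with the widest gap, the 4 given by ID, the 3 with the widest range among naive libraries, and both genes of the closest pair. Genes 3, 6, 11, 88, 89 and 108 separate; in genes 1, 38, 50, 68 and 84 the libraries of the groups overlap widely.

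Some of the genes varied between single corneas by far more than between groups. The ratio of the highest to the lowest library had a median of 1.58 among non-impaired, 1.89 among naive and 2.45 among impaired libraries, and was at least 3 in 18, 25 and 43 of the 130 genes. Gene 38 differed widely within naive and impaired corneas, by 25.9-fold and 21.0-fold from lowest to highest library, and by 2.93-fold within non-impaired ones. It stood at 1.37, 34.6, 1.63 and 35.6 CPM in naive corneas 1 to 4, 41.9, 37.9, 14.6, 42.8 and 16.6 CPM in non-impaired corneas 1 to 5 and 43.7, 22.5, 22.3, 2.09 and 3.03 CPM in impaired corneas 1 to 5. The naive libraries lay near 1.5 or near 35 CPM with nothing between them, so its naive median is a value that no naive cornea had. Gene 50 stood at 8.06, 8.16, 8.91 and 0.0599 CPM in naive corneas 1 to 4, 19.8, 65.4, 30.6, 22.5 and 3.61 CPM in non-impaired corneas 1 to 5 and 14.2, 4.89, 57.7, 62.9 and 4.19 CPM in impaired corneas 1 to 5. Naive 4 held 1 count of gene 50, and its impaired libraries spanned nearly as wide a range as the non-impaired ones. On group means its log2 ratio of non-impaired to impaired was -0.018.

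Gene 60 stood at 6.69, 15.9, 5.31 and 1.56 CPM in naive corneas 1 to 4, 15.3, 26.4, 42.98, 7.48 and 16.04 CPM in non-impaired corneas 1 to 5 and 11.2, 5.62, 3.64, 8.34 and 4.38 CPM in impaired corneas 1 to 5. Its naive libraries followed the order seen in gene 25, and non-impaired 3 was the highest and impaired 3 the lowest library of its group in both genes. After each group's mean log2 CPM was subtracted, genes 25 and 60 correlated at r = 0.96 over the 14 libraries, the closest pair of the set. Genes 6 and 89 followed at r = 0.95, then genes 10 and 14 and genes 1 and 8 at r = 0.94. In 12 genes naive 2 stood above the non-impaired median. Among these, gene 58 stood at 5.89, 25.4, 7.36 and 5.93 CPM in naive corneas 1 to 4 and gene 26 at 20.9, 60.5, 19.8 and 22.8 CPM. Of those 12 genes 0 were called higher than both other groups by edgeR, where 58 of the 130 and 2.52% of all tested genes were. Picking genes by a high naive library works against such a call, so this count describes the choice.

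The edgeR coefficient of variation between corneas, fitted within each group, had a median over the 130 genes of 20.5% among non-impaired, 26.8% among naive and 34.4% among impaired libraries. Over the 8137 tested genes of at least 3 CPM in non-impaired corneas the medians were 13.8%, 16.3% and 20.9%. Without impaired 1 and naive 4 the medians were 21.9% among naive and 29.7% among impaired libraries for the 130 genes and 12.3% and 19.3% for the 8137. The 130 genes were chosen by medians of these same libraries and the 8137 genes are not matched to them, so the higher values are a description and not a property shown apart from that choice.

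Part of the variation was shared. Over the 14 libraries, which share their totals and their groups, the pairwise correlation after subtracting group means had a median of 0.20 among the 8385 pairs of the 130 genes and 0.05 among pairs of the 8137 genes. It exceeded 0.8 in 1.94% and 0.782% of pairs. In 61 of the 130 genes no other gene of the set correlated above 0.8, so at that cut the set did not form 1 block. Low counts can hold a correlation down, and how far they did so was not tested. Gene 89 had the most partners, 18. In these 19 genes, picked after their values were seen, naive 4 was the lowest naive library in 19 and impaired 1 the highest impaired library in 15. Their median log2 CPM relative to the naive median was -0.74 in naive 4 and 0.68 in impaired 1, against -0.63 to 0.13 in impaired 2 to 5 and 0.73 to 1.02 in non-impaired corneas. Impaired 1 thus stood just below the non-impaired libraries in these genes, while impaired 2 was the lowest impaired library in 10 of them and impaired 5 in 9. Without naive 4 and impaired 1 gene 89 had 4 partners, all among its 18, and gene 33 had the most, 9. The median correlation within the 19 genes was 0.79 over all libraries and 0.52 without naive 4 and impaired 1, which were left out only together. As the 19 genes were picked for their correlation over all 14 libraries, part of this fall can follow from that choice. Over all pairs of the 130 genes the median without naive 4 and impaired 1 was 0.12, against 0.03 among the 8137 genes. Of these pairs, 1.11% and 0.654% exceeded 0.8, in that order. What these libraries share was not tested.

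**Figure D5:**
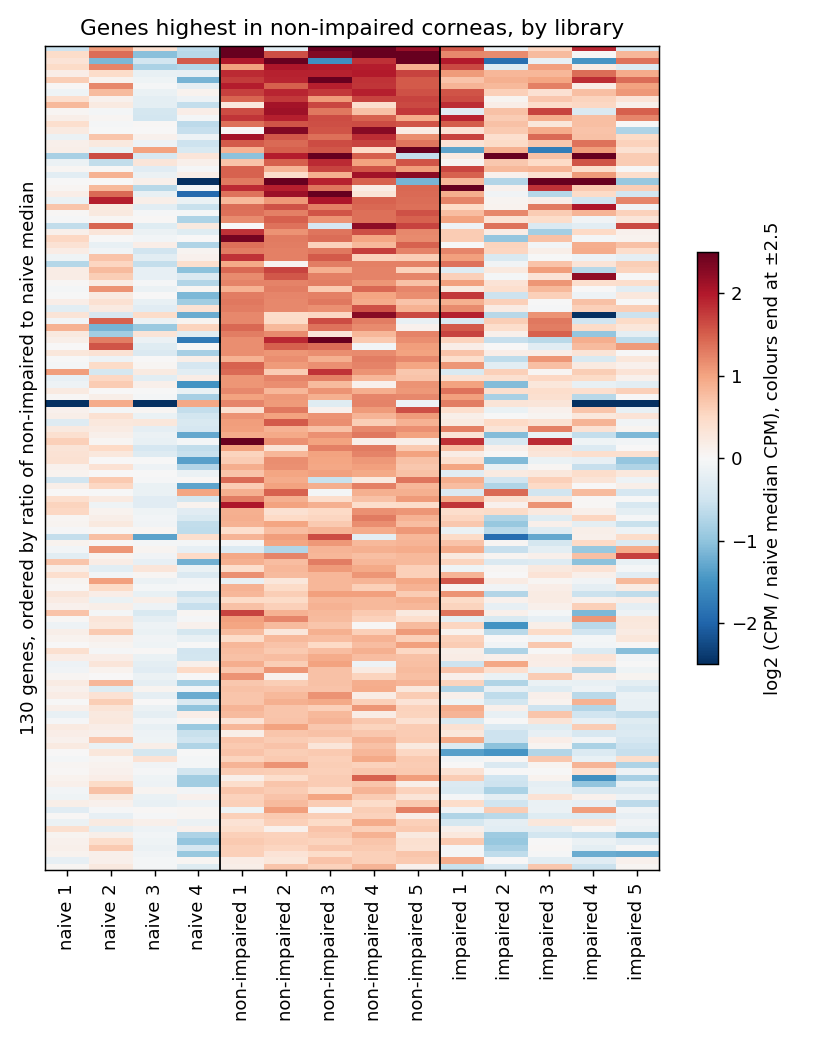
Log2 of CPM over the naive median (colour) for the 130 genes (rows, from the highest to the lowest ratio of non-impaired to naive median) in the 14 libraries (columns). The block of non-impaired columns is red throughout with scattered exceptions; impaired 1 is redder than impaired 2 to 5, and naive 4 holds most of the blue among naive columns.

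Each library was also left out in turn, with the genes chosen from the other 13 and read in the library left out. The medians of the other groups, which had chosen the genes, stayed in the comparison, which can raise the shares below. The 8137 genes set beside them are not matched to the chosen genes, so the shares are a description. Without one non-impaired library 121 to 136 genes were chosen. In the library left out, 87.2% to 94.2% of them stood above both the naive and the impaired median, where 27.0% to 32.2% of the 8137 genes did. At least 1.5 times both medians was reached by 50% to 61.2%, where 2.21% to 3.91% of the 8137 genes reached it. The median ratio to naive was 1.66 to 1.79 in the libraries left out, below the 1.85 to 1.93 of the libraries that had chosen the genes. Left-out naive libraries stood below the non-impaired median in 87.9% (naive 2) to 98.3% (naive 4) of the genes chosen, where the share of the 8137 genes was 41.6% to 48.5%. For impaired 2 to 5 the share was 86.2% to 97.3%, where it was 46.9% to 57.8% of the 8137 genes, and for impaired 1 it was 71.9%, against 37.9%. The median ratio of the non-impaired median to the library left out was 1.19 for impaired 1 and 1.53 to 2.02 for the other impaired libraries.

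Choosing the genes without 1 library gave 112 to 159 genes, of which 99 to 119 were among the 130. In 46 of the 130 genes the rule was met whichever library was left out. These 46 genes, picked on the same values, had a median ratio of 2.12 to naive and 2.0002 to impaired. In 15 of them the libraries did not overlap, against 30 of the 130 genes and 1.32% of all tested genes. The other 84 were lost at least once, and 24 were lost for 5 or more of the 14 libraries. On group means in place of medians 83 of the 130 genes met the rule and 47 did not. The 18 genes in which the non-impaired libraries differed 3-fold or more had a median ratio to naive of 2.69, above that of the whole set. Of these, 1 was called higher than both other groups, against 58 of the 130 genes and 2.52% of all tested genes. A wide range among non-impaired libraries works against such a call, so this count too describes the choice.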

How the data were processed

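RNA of 14 rabbit corneas was sequenced. The files deposited by the authors hold unnormalised counts per Ensembl gene ID, 1 file to a library, not pooled. Per the labels' protocols, a TruSeq RNA kit was used on total RNA. TopHat2 2.1.0, Cufflinks 2.0.2, bcl2fastq 2.17, DESeq and genome OryCun2.0 are listed in the submitters' processing notes. How reads were counted, with which strand setting, annotation and rule for reads matching several genes, is not stated in the sources read, so counts of overlapping or near-identical genes are uncertain.

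CPM were computed from the counts and column totals with Python 3.11.15. Groups follow the labelled clinical status. All 14 entered 1 edgeR 4.0.16 quasi-likelihood fit in R 4.3.3 with TMM factors, the default expression filter (10048 genes kept) and robust dispersion, and p-values were adjusted over all 10048 genes. Correlations used log2 of CPM plus 0.5. Alternatives were other scalings, filters and folds, group means, DESeq2 1.42.0, limma 3.58.1 with voom, fits of only the groups compared, and leaving out each library.

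The genes and the rules were chosen with earlier results of these data known. With IDs only, a rule took 4 genes of at least 5 CPM in non-impaired corneas: the 2 with the largest non-impaired to naive ratio of medians and, among the others, the 2 with the smallest impaired to non-impaired ratio. Lists of cell type markers and pathways need gene names and were not used. The other genes described singly were chosen after their values were seen.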

Additional observations from a re-analysis of the deposited data

Results flagged for a closer look

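In 7 of 66 sets of values, 1 library stood apart from the rest of its group by Dixon's test at the 95% level. The sets were the share of counts and 21 genes described singly, in each of the 3 groups. Chance alone gives this in about 1 of 20 sets chosen without regard to their values. Some of the 21 genes were picked for a wide naive range or a high naive 2, so the count cannot be weighed against that rate. Non-impaired 1 stood apart in gene 1, at 1609 CPM, and in gene 2, at 385 CPM, above its group in the first and below it in the second. Non-impaired 3 stood apart in gene 11, at 157 CPM, above 4 close values. Naive 4 stood apart in gene 50, at 0.0599 CPM, which is 1 count. Naive 2 stood apart, above the other naive libraries, in gene 26 at 60.5 CPM, in gene 58 at 25.4 CPM and in gene 76 at 12.5 CPM. Over all 130 genes a library stood apart in 14 among naive, 12 among non-impaired and 10 among impaired corneas. The shares over the 8137 tested genes of at least 3 CPM in non-impaired corneas were 6.51%, 6.64% and 8.12%. Naive 2 was the library set apart in 9 of the 14 naive cases, and impaired 1 in 6 of the 10 impaired cases.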

How the results depend on the processing

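The number of genes the rule chose depended mainly on its thresholds: 25 with a 2-fold excess over both other groups, 419 with a lower fold threshold and 82 with a floor of 10 CPM. Other scalings gave 149 (TMM) to 172 genes (totals without the 10 most abundant genes), group means gave 104, and leaving out 1 library gave 112 to 159. Leaving out 1 library gave 58 to 93 calls against naive, 53 to 88 against impaired and 13 to 20 between impaired and naive corneas, where 8.85% to 14.1%, 10.9% to 18.9% and 26.1% to 41.6% of all tested genes were called. The last count was 10 in the fit of only those 2 groups. DESeq2 called 101, 80 and 20 of the 129 genes it tested, where 11.5%, 11.7% and 29.2% of all tested genes were called, and limma voom 113, 86 and 20 of the 130, where 19.5%, 16.7% and 45.1% were. Genes without overlap numbered 30 to 50 when 1 library was left out, where 1.35% to 2.32% of all tested genes had no overlap. They numbered 50 without impaired 1 (2.32% of all tested genes) and 50 without impaired 1 and naive 4 (2.40%). Leaving out impaired 1 and naive 2 gave 58 (3.67%), and these last 2 settings were chosen after seeing the data. Without the 10 most abundant genes in the total, the 130 genes held 0.370% of counts in naive and 0.725% in non-impaired corneas, and without gene 1, also chosen after seeing the data, 0.521% in non-impaired corneas. With 1 library left out the shares ranged from 0.291% to 0.331% in naive, 0.566% to 0.602% in non-impaired and 0.346% to 0.401% in impaired corneas. The log2 ratio of non-impaired to impaired medians reversed in gene 1 without impaired 2 (-0.16), 4 (-0.16) or 5 (-0.15), and ranged from -0.16 to 1.15 over the libraries left out. It reversed in gene 50 on group means (-0.018) and without impaired 1 (-0.47), 2 (-0.67) or 5 (-0.67), with a range from -0.67 to 1.24. With 4 impaired libraries left the median is the mean of the middle 2, which in these cases lie far apart. No paired analysis was possible because no label ties corneas of different groups to each other; the numbers 1 to 5 follow the order of the samples and are only names. The lowest count of any of the 130 genes was 1 to 19 in single libraries, which limits the precision of such genes' ratios.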
